A study of Homo sapiens with 3 samples.

Results

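The MYC-MAX-MXD network is a set of transcription factor genes whose proteins pair through a basic helix-loop-helix zipper and bind E-box DNA. The genes were taken by symbol from a list of 10, namely MYC, MYCN, MYCL, MAX, MXD1, MXI1, MXD3, MXD4, MNT and MGA. Of these, 9 had a row among the 16793 gene symbols, and MYCN was not analysed here. RNA was sequenced from H446 cells, an established human small cell lung cancer line, after 48 h with vehicle, with 5 µM or with 10 µM 3-bromoascochlorin (BAS). BAS is a brominated form of the fungal compound ascochlorin, and the study's title links its effect on this cancer to the MAPK pathway. There was 1 library per group and 3 libraries in all, so no difference below has a replicate check, and no p-value is given. Levels are FPKM, reads per kilobase of gene scaled to the size of the library, as the authors deposited them. Differences are in log2(FPKM + 1), which understates the change of low genes, over the 11512 genes whose mean over the 3 libraries reached 1 FPKM, and ratios are plain ratios of FPKM. A gene is called where that difference is at least 1 in either direction, a 2-fold limit.

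MYC, MYCN and MYCL bind DNA only as pairs with MAX and then raise the transcription of genes for growth, ribosome production and metabolism. The MXD proteins, of which MXI1 is one, and MNT also pair with MAX, occupy the same E-boxes and recruit the SIN3 corepressor with histone deacetylases, so that they oppose MYC. MGA pairs with MAX in a repressive polycomb complex. In small cell lung cancer the MYC family genes are known for amplification, MYCL having first been found in this tumour type, and H446 is known as a line with amplified MYC. Gene levels in bulk RNA do not separate fewer cells with a transcript from less transcript per cell, and they do not measure the proteins.

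The start regions of 4 network genes are shown because MXD4 and MNT hold the E-box that the network's own proteins bind, while MXD1 and MYCL stood with MXD4 as the genes furthest above vehicle. The sequences are RefSeq's, build GRCh38.p14, and cover the 250 bases before the annotated start of each gene, with the letters of CACGTG in capitals. They lie at chr4:2262110-2262359 (minus strand) for MXD4, chr17:2401061-2401310 (minus strand) for MNT, chr2:69914859-69915108 (plus strand) for MXD1 and chr1:39901918-39902167 (minus strand) for MYCL.
MXD4: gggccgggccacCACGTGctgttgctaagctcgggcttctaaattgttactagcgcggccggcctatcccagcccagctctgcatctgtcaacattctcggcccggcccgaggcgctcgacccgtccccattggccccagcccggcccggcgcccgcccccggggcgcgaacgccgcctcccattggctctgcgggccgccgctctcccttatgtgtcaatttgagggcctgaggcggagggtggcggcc
MNT: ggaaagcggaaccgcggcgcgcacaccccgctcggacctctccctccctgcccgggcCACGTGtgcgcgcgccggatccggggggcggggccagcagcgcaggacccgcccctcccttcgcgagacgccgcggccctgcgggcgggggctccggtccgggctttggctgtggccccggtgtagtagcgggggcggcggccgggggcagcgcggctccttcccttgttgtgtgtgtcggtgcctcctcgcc
MXD1: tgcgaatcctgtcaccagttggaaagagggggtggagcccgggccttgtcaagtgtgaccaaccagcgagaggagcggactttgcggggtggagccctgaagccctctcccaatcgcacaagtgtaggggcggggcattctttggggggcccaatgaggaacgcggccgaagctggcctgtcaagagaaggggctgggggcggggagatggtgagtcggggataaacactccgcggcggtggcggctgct
MYCL: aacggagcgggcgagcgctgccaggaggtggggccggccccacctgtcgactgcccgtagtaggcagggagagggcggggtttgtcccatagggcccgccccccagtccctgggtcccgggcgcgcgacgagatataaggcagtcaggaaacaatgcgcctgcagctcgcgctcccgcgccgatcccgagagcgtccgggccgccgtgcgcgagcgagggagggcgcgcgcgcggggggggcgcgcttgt

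The E-box of MXD4 began at position -238 and that of MNT at position -193, counted from the start of the gene. RefSeq gave 13 promoters, each of 250 bases before to 50 after a start, for 8 of the network genes with a row. Over these full windows, read on both strands, CACGTG was present for 2 of the 8 genes, MXD4 and MNT. It was in 13.1% of the 9180 compared genes with a promoter and in 7.26% of all 35116 promoters in the table. The variant CACGCG, which MYC and MAX also bind, was found for 3 of the 8 genes (MXI1, MXD3 and MGA), against 23.2% of the compared genes and 11.4% of all promoters. TGATGNAA, a core of the composite element bound by the stress factor ATF4, was found for 0 of the 8, against 2.65% and 3.62%. No 2 of these motifs overlapped in the windows of the network genes. These matches describe the letters in the windows only.

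The libraries carried the markers of the labelled cell type. The 6 small cell lung cancer markers analysed were all above 1 FPKM in each library, among them the lineage factor NEUROD1 at 104.96, 93.15 and 91.62 FPKM with vehicle, 5 µM and 10 µM. INSM1, a transcription factor gene of neuroendocrine cells (72.85, 81.79 and 95.14 FPKM), CHGA, a granule protein gene (1.91, 4.0 and 6.41 FPKM), UCHL1, a deubiquitinase gene (82.21, 131.19 and 176.51 FPKM), and the adhesion gene NCAM1 (46.93, 60.14 and 65.84 FPKM) were each ordered upward with dose. The synaptic vesicle gene SYP (17.30, 12.77 and 13.25 FPKM) was, like NEUROD1, lower at both doses than with vehicle. The 6 sum to 326.16, 383.04 and 448.77 FPKM. Of 6 markers of cells foreign to the culture, the collagen genes COL1A1 and COL3A1 were high, COL3A1 at 297.04, 433.94 and 453.79 FPKM, and the other 4 did not pass 1.09 FPKM in any library. The 6 foreign markers sum to 362.09, 521.28 and 553.76 FPKM, and the part of either sum in the results below was not tested.

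None of the 9 network genes was called in any comparison, where 1.95% of all genes were called at 10 µM against vehicle, 0.747% at 5 µM against vehicle and 0.0869% at 10 µM against 5 µM. With a lower limit of 1.5-fold, also on log2(FPKM + 1), 1 of 9 was past it at 10 µM (MXD1), against 9.48% of all genes. At 5 µM it was 0 of 9, against 4.6% of all genes, and between the doses 0 of 9, against 0.843%. The added 1 can lower these counts for genes of low level. By plain ratio to vehicle, MXD1 (2.09), MYCL (1.62) and MXD4 (1.54) passed 1.5 at 10 µM, and MXD1 (1.52) at 5 µM. The share of all genes by plain ratio was not computed. At 10 µM, 8 of 9 were above vehicle, with a median difference of 0.14, beside 56.5% of all genes and a median of 0.05. At 5 µM, 6 of 9 were above vehicle, with a median of 0.14, beside 53.2% of all genes and a median of 0.02. Both comparisons use the same vehicle library. With median-ratio scaling the 10 µM differences of MNT and MGA were 0.02 each, so the 8 of 9 rests in part on differences near 0. The network was chosen with earlier results of these data known. Setting its counts and medians, here or below, beside those of all genes is therefore no test of the network.

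**Figure D1:**
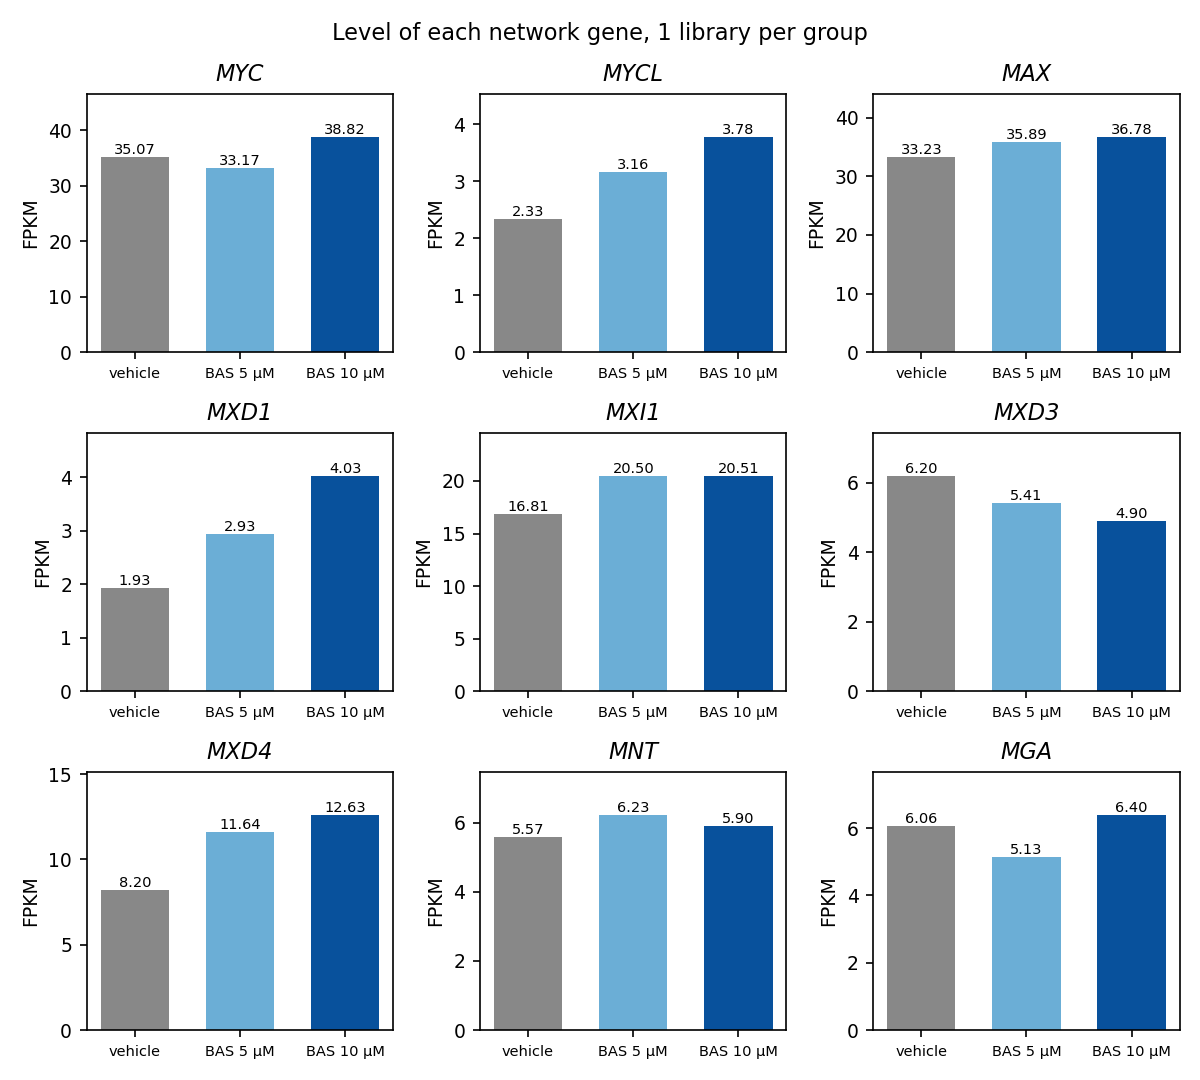
FPKM of the 9 network genes in the vehicle, 5 µM and 10 µM libraries, 1 bar per library and a separate axis from 0 for each gene. MXD1 (1.93, 2.93 and 4.03 FPKM), MXD4 and MYCL climb with dose, MXD3 descends, and MYC and MAX stay between 33.17 and 38.82 FPKM.

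MYC, the more abundant activator, measured 35.07 FPKM (vehicle), 33.17 FPKM (5 µM) and 38.82 FPKM (10 µM). It was lowest at 5 µM and highest at 10 µM. Its ratio to vehicle was 1.11 at 10 µM and 0.946 at 5 µM, and its ratio between 10 and 5 µM was 1.17. The difference between the doses, 0.22, was passed by 10.7% of all genes in the upward direction, whereas 37.4% of all genes lay higher than MYC at 10 µM against vehicle. Of all symbols, 86.0%, 84.8% and 86.9% were below MYC in the vehicle, 5 µM and 10 µM library. The genes nearest to MYC in level and pattern, by Euclidean distance over log2(FPKM + 1) in the 3 libraries, were HACD3 (distance 0.03), SLC39A8 (0.03) and CCDC86 (0.07). HACD3, an enzyme of long-chain fatty acid elongation, was at 35.67, 33.76 and 38.92 FPKM with vehicle, 5 µM and 10 µM.

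MYCL, the paralog first described in small cell lung cancer, measured 2.33 FPKM (vehicle), 3.16 FPKM (5 µM) and 3.78 FPKM (10 µM). Each step in dose was upward, and the 10 µM library stood 1.45 FPKM over vehicle. Its ratios to vehicle were 1.62 at 10 µM and 1.36 at 5 µM, and on the log2 scale its differences were 0.52 and 0.32. Of all genes, 8.11% lay higher than MYCL at 10 µM and 12.4% at 5 µM. Among the 2861 genes with a mean within 2-fold of that of MYCL, 17.7% were at least as far from vehicle at 10 µM in either direction. MYC made up 93.8%, 91.3% and 91.1% of the MYC and MYCL sum in the vehicle, 5 µM and 10 µM library.

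MAX, the partner shared by the other network proteins, measured 33.23 FPKM (vehicle), 35.89 FPKM (5 µM) and 36.78 FPKM (10 µM). Both treated libraries were above vehicle, with ratios of 1.11 at 10 µM and 1.08 at 5 µM. The ratio of MYC to MAX took the values 1.06 (vehicle), 0.924 (5 µM) and 1.06 (10 µM). The transcripts of the partners were thus near equal in the vehicle and 10 µM libraries, and MAX exceeded MYC at 5 µM.

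MXD1, an antagonist known for its induction as cells leave the cycle and differentiate, had the largest ratio in the network. It measured 1.93 FPKM (vehicle), 2.93 FPKM (5 µM) and 4.03 FPKM (10 µM). Every step in dose was upward, the plain ratio to vehicle being 2.09 at 10 µM and 1.52 at 5 µM. On the log2 scale, where 1 is added to each value, the differences were 0.78 and 0.42, so the gene was not called. With 0.1 added in place of 1, the 10 µM difference was 1.02 and the gene was called. How many of all genes were called with 0.1 added was not computed. At 10 µM 2.73% of all genes lay higher than MXD1, and among the 2788 genes with a mean within 2-fold of its own, 6.67% were at least as far from vehicle in either direction. The annotation places exons of SNRNP27, a spliceosome gene on the same strand, over 3.73% of the exon bases of MXD1. SNRNP27 was at 33.72, 35.57 and 37.05 FPKM with vehicle, 5 µM and 10 µM, in the same order as MXD1 and far above it, and its part in the MXD1 values was not tested. The genes nearest to MXD1 in level and pattern over the 3 libraries were PALM2 (distance 0.09), GPX3 (0.10) and DCBLD1 (0.10). GPX3, a secreted glutathione peroxidase, was at 1.78, 3.10 and 3.92 FPKM with vehicle, 5 µM and 10 µM.

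MXD4, an antagonist whose mouse form is linked to differentiating cells, measured 8.2 FPKM (vehicle), 11.64 FPKM (5 µM) and 12.63 FPKM (10 µM). Most of its distance from vehicle was already present at 5 µM. Its ratios to vehicle were 1.54 at 10 µM and 1.42 at 5 µM, with log2 differences of 0.57 and 0.46. Of all genes, 6.62% lay higher at 10 µM and 5.90% at 5 µM, and among the 4769 genes with a mean within 2-fold of that of MXD4, 9.10% and 8.62% were at least as far from vehicle. MXD4 is 1 of the 2 network genes with CACGTG in the promoter window shown above. The other, MNT, had ratios to vehicle of 1.06 at 10 µM and 1.12 at 5 µM.

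MXI1, also called MXD2, was the most abundant antagonist and measured 16.81 FPKM (vehicle), 20.50 FPKM (5 µM) and 20.51 FPKM (10 µM). The treated libraries were alike and stood over vehicle by a ratio of 1.22 at each dose. It made up 43.4%, 43.9% and 42.8% of the summed antagonist transcripts in the vehicle, 5 µM and 10 µM library.

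MXD3 was the single network gene below vehicle at both doses. Its mouse form is known for expression in the S phase of dividing progenitor cells. It measured 6.2 FPKM (vehicle), 5.41 FPKM (5 µM) and 4.9 FPKM (10 µM), and each step was downward. Its ratios to vehicle were 0.790 at 10 µM and 0.873 at 5 µM, and 13.7% of all genes lay lower at 10 µM. The annotation places exons of PRELID1, on the opposite strand, over 22.5% of the exon bases of MXD3 and exons of RAB24, on the same strand, over 18.0%. Since no source used here states that counting used strand, the MXD3 values are uncertain. PRELID1, a mitochondrial lipid transfer gene, was at 167.92, 188.65 and 195.80 FPKM and RAB24 at 14.47, 15.05 and 15.35 FPKM with vehicle, 5 µM and 10 µM, both opposite in order to MXD3.

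MNT, the antagonist found in most cell types, measured 5.57 FPKM (vehicle), 6.23 FPKM (5 µM) and 5.9 FPKM (10 µM). An antisense gene lies over 12.2% of its exon bases, so its values carry the same doubt. MGA, the scaffold of the polycomb complex that also holds MAX, measured 6.06 FPKM (vehicle), 5.13 FPKM (5 µM) and 6.4 FPKM (10 µM). Like MYC, it was lowest at 5 µM and highest at 10 µM, and 6.18% of all genes lay higher between the doses. For the other network genes, overlaps with another annotated gene covered at most 4.46% of exon bases. At most 0.774% of the 50-base sequences of the longest coding transcript of any network gene occurred in another gene.

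**Figure D2:**
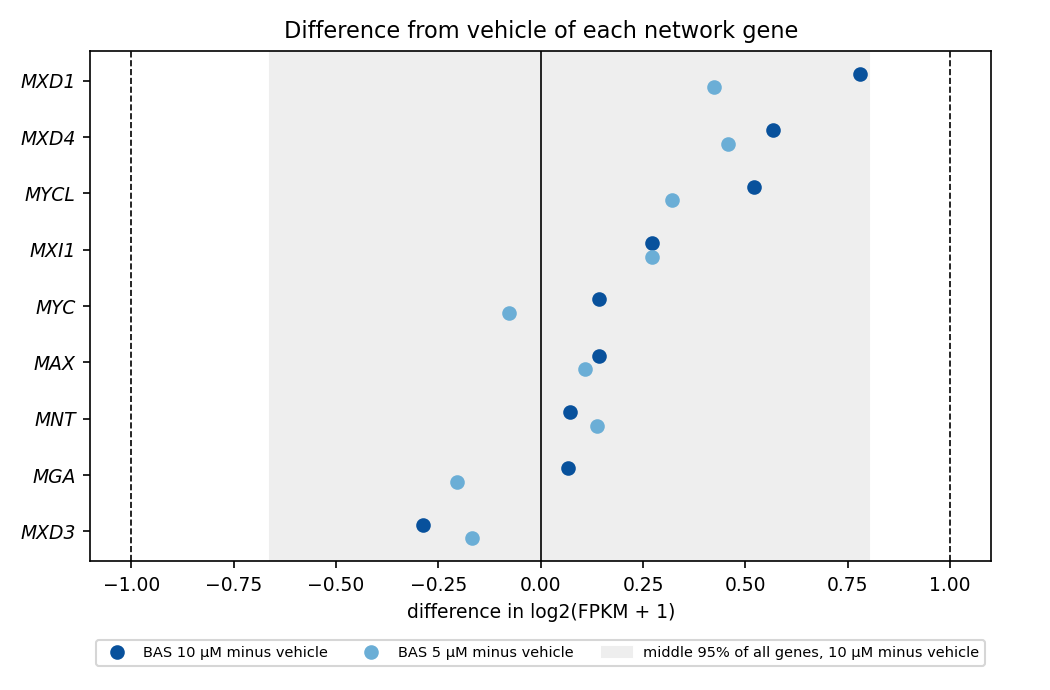
Difference in log2(FPKM + 1) from vehicle for each network gene at 10 µM (dark points) and 5 µM (light points), 1 library per group. The dashed lines mark the 2-fold limit and the grey band the middle 95% of all 11512 genes at 10 µM, from −0.66 to 0.80. All 9 genes lie inside the band, MXD1 at 0.78 near its upper edge and MXD3 at −0.29 lowest.

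Over the 3 libraries, 5 of the 9 genes (MYCL, MAX, MXD1, MXI1 and MXD4) were ordered vehicle below 5 µM below 10 µM, as were 32.9% of all genes. In the opposite order were 1 of 9 (MXD3) and 20.8% of all genes. For MXI1 the upper step was 0.01 FPKM, and with median-ratio scaling the 10 µM library was below the 5 µM library for MXI1 (−0.04) and MAX (−0.004). With vehicle the order of levels was MYC, MAX, MXI1, MXD4, MXD3, MGA, MNT, MYCL and MXD1. At 5 µM MAX was over MYC, and MNT was over MXD3 and MGA. At 10 µM MXD1 was over MYCL and MXD3 had dropped under MGA and MNT. With 1 library per group no spread is available to judge whether neighbours in these orders differ.

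Because FPKM is per length, levels can be summed by role. The 5 antagonists, MXD1, MXI1, MXD3, MXD4 and MNT, came to 38.71 FPKM (vehicle), 46.71 FPKM (5 µM) and 47.97 FPKM (10 µM). Both doses exceeded vehicle by ratios of 1.24 at 10 µM and 1.21 at 5 µM, and MXD4 and MXI1 contributed most, with 4.43 and 3.7 FPKM at 10 µM. MYC and MYCL together gave 37.4 FPKM (vehicle), 36.33 FPKM (5 µM) and 42.6 FPKM (10 µM). MYC over the antagonist sum, a ratio within each library that no scaling between libraries alters, took the values 0.906 (vehicle), 0.710 (5 µM) and 0.809 (10 µM). It was lower at both doses than with vehicle, and lowest at 5 µM, where MYC itself was lowest. The antagonist sum includes MXD3 and MNT, whose values are uncertain because other genes overlap their exons, and the ratio carries that doubt.

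**Figure D3:**
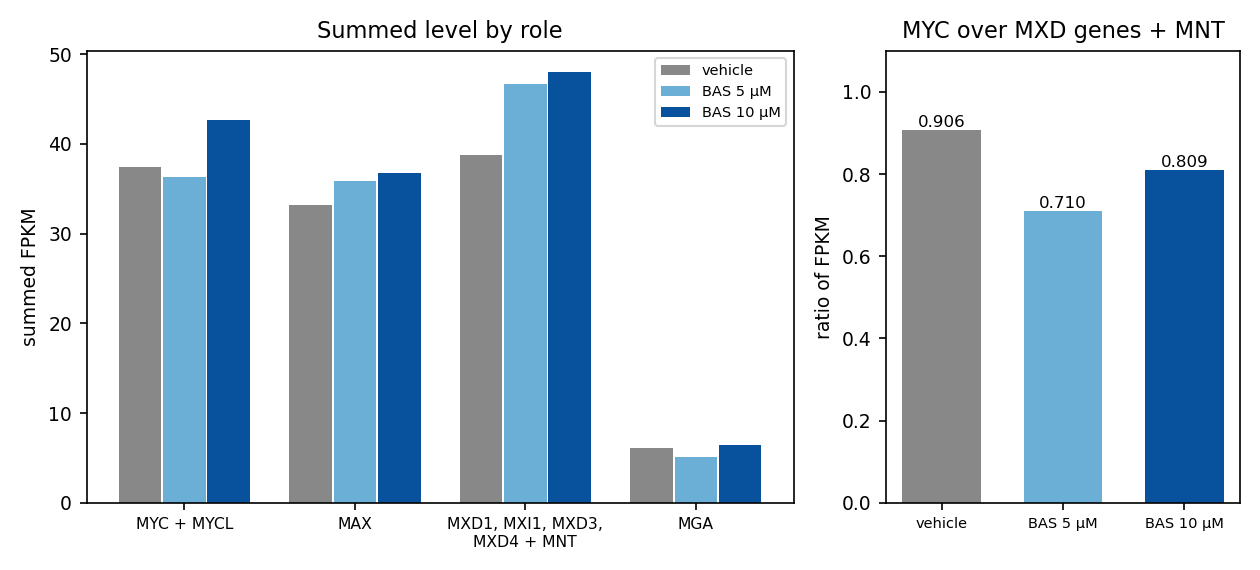
Left, summed FPKM of the activators, MAX, the 5 antagonists and MGA in the vehicle, 5 µM and 10 µM libraries. Right, MYC divided by the antagonist sum in each library, which was 0.906, 0.710 and 0.809. The antagonist bars of both doses (46.71 and 47.97 FPKM) stand above the vehicle bar (38.71 FPKM). They include MXD3 and MNT, whose values are uncertain because other genes overlap their exons.

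No partner of the antagonists or of MGA was called at either dose. Over all genes, 1.95% were called at 10 µM and 0.747% at 5 µM, and 56.5% and 53.2% were above vehicle. With such shares of calls, a count of 0 in lists this small is no result about their genes. Of 15 genes of the SIN3 and histone deacetylase corepressor, 11 were below vehicle at 10 µM, 0 were called, and the median was −0.13, where the median of all genes was 0.05. At 5 µM 10 of 15 were below, with 0 called and a median of −0.08. The subunit genes ARID4B (8.74, 6.45 and 5.92 FPKM with vehicle, 5 µM and 10 µM) and ARID4A (8.11, 6.69 and 5.97 FPKM) were furthest below, followed by SAP18 (51.64, 48.82 and 43.18 FPKM). ING1, a reader of methylated histone tails, was above, at 2.47, 3.50 and 3.14 FPKM. Of 16 partners of MGA in the polycomb complex, 7 were above and 9 below at 10 µM, with 0 called and a median of −0.03, and at 5 µM 8 were above and 8 below, with 0 called and a median of −0.04. The ubiquitin ligase gene RING1 (34.03, 43.89 and 44.56 FPKM) and PCGF6 (12.66, 15.27 and 16.68 FPKM) were furthest above. CBX3, a heterochromatin protein gene (143.62, 121.21 and 114.12 FPKM), and the methyltransferase gene EHMT1 (14.20, 11.85 and 11.52 FPKM) were furthest below. HDAC1 and HDAC2 belong to both lists. Both lists were chosen with earlier results of these data known, so their counts and medians are no test of a shift.

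MLX and MLXIP (MONDOA), the parallel branch of sugar-sensing factors related to MAX and MYC, had 34.60, 34.54 and 32.72 FPKM for MLX and 9.88, 8.75 and 10.40 FPKM for MLXIP with vehicle, 5 µM and 10 µM, and MLXIPL did not pass the filter. Among 20 genes listed as cofactors of MYC, 0 were called at either dose, beside 1.95% of all genes at 10 µM and 0.747% at 5 µM. With such shares, a count of 0 in a list this small is no result about the cofactors. At 10 µM 7 were above and 13 below vehicle, with a median of −0.03, where 56.5% of all genes were above. At 5 µM 8 were above and 12 below, with a median of −0.08, where 53.2% of all genes were above. The cofactor list was chosen with earlier results of these data known, so these counts and medians are no test of a shift. ZBTB17, which encodes MIZ1, the factor through which MYC represses genes, was at 19.44, 25.79 and 24.35 FPKM, and CDK9, the elongation kinase, at 28.68, 36.05 and 35.39 FPKM. The topoisomerase gene TOP1 (62.52, 50.24 and 49.34 FPKM) and the chromatin remodelling gene BPTF (14.70, 9.79 and 11.58 FPKM) were furthest below.

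Genes whose products act on MYC or MYCN protein included the calls of lower level in these lists. Of 25 genes listed as such, 2 were called lower at each dose, where 0.643% of all genes were called lower at 10 µM and 0.208% at 5 µM. The 25 include NBAS, which is not known to act on MYC protein. This list was chosen with earlier results of these data known, so setting its calls beside those shares is no test of the list. The list medians were −0.04 at 10 µM and −0.07 at 5 µM, beside 0.05 and 0.02 for all genes. PPP1R10 (PNUTS), a phosphatase 1 subunit reported to guard MYC protein from degradation, measured 26.71 FPKM (vehicle), 9.25 FPKM (5 µM) and 6.24 FPKM (10 µM), a log2 difference of −1.94 at 10 µM and −1.43 at 5 µM. PLK1, a mitotic kinase that stabilises MYC family proteins, was at 71.25, 32.74 and 33.04 FPKM, with differences of −1.09 and −1.10. AURKA, the kinase that binds and protects MYCN protein, was at 43.87, 24.21 and 26.78 FPKM, 0.610 times vehicle at 10 µM, and was not called. FBXW7, the ubiquitin ligase adaptor that marks MYC for degradation, was at 7.21, 5.27 and 5.35 FPKM. PLK1 and AURKA are also genes of mitosis.

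The genes that MYC induces lay on both sides of vehicle. Among 45 measured genes that MYC induces, 22 were above and 23 below vehicle at each dose, and the medians of −0.02 at 10 µM and −0.01 at 5 µM lay close to those of all genes (0.05 and 0.02). The single call was SLC3A2, higher at 10 µM, where 1.31% of all genes were called higher. This list, too, was chosen with earlier results of these data known, so these values are no test of it. SLC3A2, the shared chain of amino acid transporters and also a target of ATF4, measured 55.21 FPKM (vehicle), 110.55 FPKM (5 µM) and 127.83 FPKM (10 µM). HK2, the hexokinase of proliferating cells, was at 16.51, 23.77 and 28.67 FPKM. EIF4A1, a translation helicase, was at 647.47, 525.84 and 426.56 FPKM, and the DNA repair nuclease gene APEX1 at 217.16, 170.94 and 147.33 FPKM. CACGTG was in the promoter window of 18 of the 38 induced genes with a RefSeq promoter, or 47.4%, against 13.1% of compared genes. Among the genes repressed by MYC, listed below, it was in 2 of 14. The variant CACGCG was in 28.9% of the 38 and 42.9% of the 14, against 23.2% of compared genes. Such shares describe the choice of genes in each list and not a change between the libraries. Over all compared genes, those with CACGTG (1198 genes) had a median difference of 0.04 at 10 µM and those without it (7982 genes) one of 0.05, and at 5 µM the medians were 0.01 and 0.02.

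Of 20 genes listed as repressed by MYC, 15 passed the filter on low values, and of these 4 were called higher at 10 µM and 3 at 5 µM, with 0 called lower. Of all genes, 1.31% were called higher at 10 µM and 0.539% at 5 µM. Because this list was chosen with earlier results of these data known, neither its calls nor its medians below test a shift of the list. With no filter, so that all 20 genes counted, the medians were 0.27 at 10 µM and 0.16 at 5 µM, beside 0.01 and 0.004 for all symbols. TXNIP, a glucose-regulated inhibitor of thioredoxin, measured 14.90 FPKM (vehicle), 42.73 FPKM (5 µM) and 71.85 FPKM (10 µM). DDIT3 (CHOP), a factor of the stress response, was at 11.99, 41.25 and 51.08 FPKM. GADD45A, a growth arrest gene, was at 34.29, 73.31 and 88.63 FPKM, and CDKN2B, the inhibitor p15 of G1 cyclin-dependent kinases, at 8.97, 14.70 and 19.04 FPKM. TXNIP, DDIT3 and GADD45A are also known for stress and nutrient control that does not pass through MYC. Without them, a comparison chosen after the values were seen, the median of the other 12 that passed the filter was 0.31 at 10 µM and 0.0895 at 5 µM. The medians of all 15 were 0.47 at 10 µM and 0.49 at 5 µM, and they are no support for a shift of the list, because passing the filter depended on the treated libraries for GADD45G, another growth arrest gene. GADD45G, named after its values were seen, measured 0.63 FPKM (vehicle), 1.66 FPKM (5 µM) and 1.26 FPKM (10 µM), and its difference of 0.47 was itself the median at 10 µM. Without it, the medians of the other 14 were 0.53 and 0.29.

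**Figure D4:**
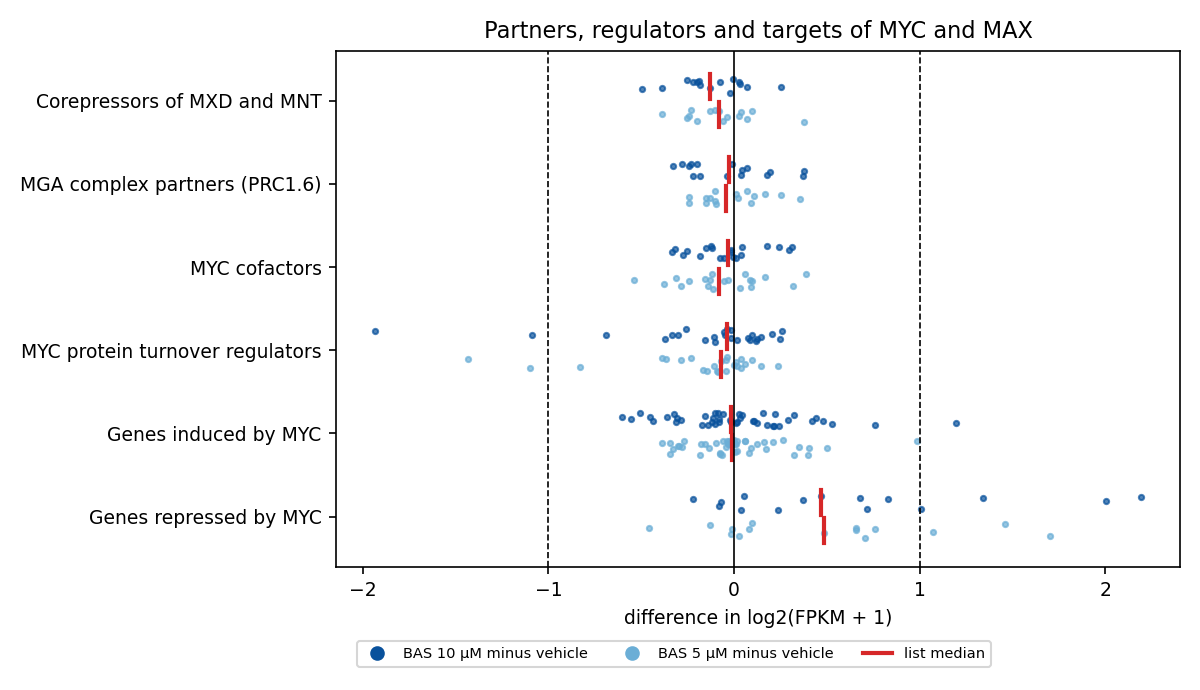
Difference in log2(FPKM + 1) from vehicle for the measured genes of 6 lists, at 10 µM (dark points) and 5 µM (light points), with the median of each list as a red bar and the 2-fold limit dashed. The red bars sit near 0 except that of the genes repressed by MYC, at 0.47 and 0.49 over the 15 that passed the filter, against 0.27 and 0.16 over all 20. PPP1R10 is the lowest point at each dose, at −1.94 and −1.43.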

How the data were processed

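RNA-seq was made from total RNA of H446 cells, 1 library per treatment, as single-end reads of 50 bases per the labels' protocols. The submitters' processing notes name human build hg19 and the tools Cufflinks, Cuffdiff, Bowtie2, BWA and Trim Galore, without versions or roles, and the annotation is not given. Per the file headers, the authors deposited FPKM, which is written to 2 decimals. Since the files hold no counts, read depth is unknown and limits on precision cannot be computed. Headers of the treated libraries read ASB85 and ASB810, so that the doses rest on the sample labels. Library totals ran from 487923 to 507342 FPKM.

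The network genes and the 7 gene lists were chosen with earlier results of these data known. The genes named are all network genes, from each list up to 4 furthest from vehicle at 10 µM, and the 3 nearest to MYC and to the network gene furthest from vehicle. PRELID1, RAB24 and SNRNP27 were named for their overlap. Differences in log2(FPKM + 1) were taken over genes averaging at least 1 FPKM, and the 2 symbols in more than 1 row were summed. Of the steps, only the 2-fold call was tested on simulated data. Its simulated shifts were added on the log2(FPKM + 1) scale, so that test could not show low genes missed because of the added 1. Promoters and motifs came from RefSeq (GRCh38.p14) by symbol. Overlaps and shared 50-base sequences came from GENCODE 29, so no hg19 coordinate is given. Alternatives were a pseudocount of 0.1 or 0.5, a filter at 5 FPKM or none, median-ratio scaling, a common total and a 1.5-fold limit. Python 3.11.15, numpy 2.4.6, pandas 2.3.3 and matplotlib 3.10.9 were used.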

Additional observations from a re-analysis of the deposited data

How the results depend on the processing

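No paired analysis was possible because each group held 1 library, and for the same reason no replicate could be left out. The count of network genes past the limit was 0 of 9 in each comparison with a pseudocount of 0.5, no filter, median-ratio scaling or a common total, and 0 of 7 with the filter at 5 FPKM, which removed MXD1 and MYCL. At 10 µM against vehicle it was 1 with a pseudocount of 0.1 and 1 with the 1.5-fold limit, MXD1 in both. The 1.5-fold limit was run with a pseudocount of 1 only, and 9.48% of all genes passed it at 10 µM against vehicle. For the other settings the share of all genes was not computed, so their counts have no background. Of 156 differences of single network genes under these settings, 2 changed side of 0, those of MAX and MXI1 between the doses with median-ratio scaling. List medians moved by at least 0.1 for the genes repressed by MYC alone. At 10 µM that median was 0.68 with the filter at 5 FPKM, 0.27 with no filter, 0.68 with a pseudocount of 0.1, 0.64 with a pseudocount of 0.5 and 0.31 without DDIT3, GADD45A and TXNIP. At 5 µM it was 0.16 with no filter and 0.0895 without those 3 genes, and 0.29 without GADD45G, against 0.53 at 10 µM. Each of these stayed above 0, and the cause was not tested. Settings added after the values were seen were the lists without those 3 genes or GADD45G, the same list without HES1 and KLF6, whose repression by MYC is uncertain (0.47 at 10 µM and 0.49 at 5 µM), and the turnover list without NBAS, which is not known to act on MYC protein (−0.04 and −0.08).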

Other observations

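Within the genes induced by MYC, members chosen here after their values were seen lay on both sides of vehicle. The nucleolar protein genes NPM1 (965.83, 786.90 and 714.03 FPKM with vehicle, 5 µM and 10 µM) and NCL (311.19, 247.34 and 226.96 FPKM) were lower at each dose, as was PTMA, an abundant nuclear protein gene (867.35, 661.60 and 610.88 FPKM). Other nucleolar genes of the list lay on both sides. For example, NOLC1 (92.34, 98.30 and 113.06 FPKM) was higher and NOP56 (114.93, 111.92 and 103.11 FPKM) lower at each dose. The polyamine synthesis genes ODC1 (151.91, 190.35 and 206.68 FPKM) and SRM (167.94, 187.88 and 198.91 FPKM) were higher at each dose, as were CDK4, the G1 kinase gene (152.42, 194.45 and 204.66 FPKM), and its partner CCND2 (7.55, 10.32 and 11.31 FPKM). The ratios to vehicle at 10 µM were 0.739 for NPM1, 0.729 for NCL, 1.36 for ODC1 and 1.34 for CDK4. None of these was called.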
